A study of Homo sapiens with 12 samples.

Results

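RBM3, CIRBP and RTN3 are genes of the cellular response to cooling, and they were followed here across every library of an RNA interference experiment directed at RBM3. They are 3 of the 63677 gene rows in the deposited count table, taken by symbol (ENSG00000102317, ENSG00000099622 and ENSG00000133318), and all 3 passed the filter on low counts. Both lines studied, MIA PaCa-2 and PANC-1, are established lines of human pancreatic carcinoma. Each was cultured for 72 h before transfection. It was transfected for 4.5 h at 25 nM with negative control siRNA or with 2 siRNAs against RBM3 together, and was collected after recovery overnight. The 4 groups were MIA PaCa-2 with control siRNA (replicates 1, 2 and 4), MIA PaCa-2 with RBM3 siRNA (replicates 1, 2 and 5), PANC-1 with control siRNA (replicates 1, 2 and 4) and PANC-1 with RBM3 siRNA (replicates 1, 2 and 3). All received the same transfection reagent and were grown at 1 temperature, so the levels below are those of unchilled, transfected cells. The labels mention both total and cytoplasmic RNA, and do not say that replicates were separate cultures, and p-values then measure only the spread between these libraries, which may be technical. Values after ± are SDs over the 3 libraries of a group (n = 3) throughout.

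RBM3 and CIRBP are small RNA-binding proteins with a single RNA recognition motif and a glycine-rich tail. Both are made in larger amounts when mammalian cells are mildly cooled, while most other protein synthesis slows, and both bind messenger RNAs and alter their stability, translation and poly(A) site use. RTN3 is a reticulon, a membrane protein that bends the tubules of the endoplasmic reticulum and serves as a receptor for their autophagy, and in neurons its translation during cooling is promoted by RBM3.

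Total counts ran from 14217185 to 39652502 per library, and in PANC-1 every RBM3 siRNA library (31440551 to 33341322) was deeper than every control (14217185 to 23993638). Keratins KRT8, KRT18 and KRT19 were at 291 CPM or more in all libraries, whereas EPCAM, an epithelial adhesion molecule, reached only 0.0952 CPM in MIA PaCa-2 and was at 13.6 to 30.6 CPM in PANC-1. The mesenchymal marker VIM was at 3720 to 6520 CPM in MIA PaCa-2 and at 3350 to 4270 CPM in PANC-1. The immune markers PTPRC and CD3E stayed at or below 0.171 CPM, and insulin, glucagon and the endothelial marker PECAM1 had a count of 0 in all libraries. VWF, also an endothelial marker, was at 0.252 to 0.476 CPM in MIA PaCa-2 and at most 0.278 CPM in PANC-1 (at most 20 counts). PANC-1 RBM3 siRNA replicate 3 stood apart. COL1A2, a collagen gene, was at 440.7 CPM in it, at 0.0461 to 1.67 CPM in the other 5 PANC-1 libraries and at 899 to 1814 CPM in MIA PaCa-2, and UCA1, a long non-coding RNA, was at 69.8, at most 0.128 and at least 85.9 CPM in the same order. FOXA2, an endoderm transcription factor, was at 42.7 CPM in that library and at 63.4 to 82.2 CPM in the other PANC-1 libraries. The log2 fold changes of the members, the list counts and the list genes in which it stands out are therefore also given without it.

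CIRBP is the closest paralogue of RBM3, so the first question was how far their transcripts can be told apart. RBM3 (GENCODE 29, GRCh38, chromosome X, 48574449 to 48579066, plus strand) and CIRBP (chromosome 19, 1259384 to 1274880, plus strand) have coding sequences of 474 and 519 bases in the transcripts RBM3-202 and CIRBP-201, for 157 and 172 amino acids. The reads were aligned by the authors to GRCh37, so these positions describe the reference and not the counted features. Over 457 aligned coding bases 332 were identical (72.6%), and 110 of 152 aligned residues were the same (72.4%). Among all in-frame stretches of 96 coding bases compared without a gap, the pair most alike lies in the RNA recognition motif, at coding bases 31 to 126 of both (codons 11 to 42). The pair, 70 bases of which are identical, is printed to show how the differences are spread, read 5′ to 3′, with the 26 bases that differ in capitals.
RBM3: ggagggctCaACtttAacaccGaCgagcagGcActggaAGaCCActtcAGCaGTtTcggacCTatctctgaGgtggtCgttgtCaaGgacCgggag
CIRBP: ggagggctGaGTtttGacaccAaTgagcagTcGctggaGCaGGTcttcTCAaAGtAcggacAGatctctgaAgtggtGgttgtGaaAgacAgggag
Differing bases interrupt the match throughout. The longest run shared by the coding sequences was 11 bases, and over all 11 annotated RBM3 and 46 CIRBP transcripts it was 14. No stretch of 75 bases, the length of a read, was common to both genes. The sequences of the siRNAs were not used here, so matches of the siRNAs to CIRBP were not searched for.

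Other features share more with these genes. AC115618.1, antisense to RBM3 with overlapping exons, had 194 counts over all libraries, 0.310% of the RBM3 total. CIRBP-AS1, antisense to CIRBP, had 150 counts, 0.549% of the CIRBP total, and between 0 and 29 in a library. The strand setting of the counting is not given in the sources used here, so reads of a gene and its antisense partner cannot be told apart. RTN3 (chromosome 11, 63681446 to 63759891, plus strand) has a processed pseudogene, RTN3P1, with a longest shared run of 151 bases. Of the 637 stretches of 75 bases in RTN3P1, 113 also occur in RTN3 transcripts, so reads of this pair could be split either way. RTN3P1 had 628 counts, 0.689% of those of RTN3.

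RBM3, the siRNA target, was lower in every RBM3 siRNA library than in every control library of its line. The MIA PaCa-2 level was 249.8, 277 and 207 CPM (counts scaled by library size with TMM normalisation) in control replicates 1, 2 and 4, and at 44.4, 37.4 and 61.9 CPM in siRNA replicates 1, 2 and 5. The remaining level was 18.2%, 15.3% and 25.3% of the control mean in these siRNA libraries. Such a fall without overlap was seen in 3.63% of the 17862 genes tested. In PANC-1 the controls were at 567, 426 and 436 CPM (replicates 1, 2 and 4), and the siRNA libraries at 96.5, 195 and 83.0 CPM (replicates 1, 2 and 3). The library of siRNA replicate 2 kept 40.9% of the control mean. Replicates 1 and 3 kept 20.3% and 17.4%, so the remaining RBM3 level varied 2.34-fold among the PANC-1 siRNA libraries. Replicate 3, the lowest, held transcripts typical of MIA PaCa-2, and RBM3 was lower in MIA PaCa-2. The part of that in its RBM3 level was not tested. A fall without overlap in PANC-1 was seen in 2.77% of genes.

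**Figure D1:**
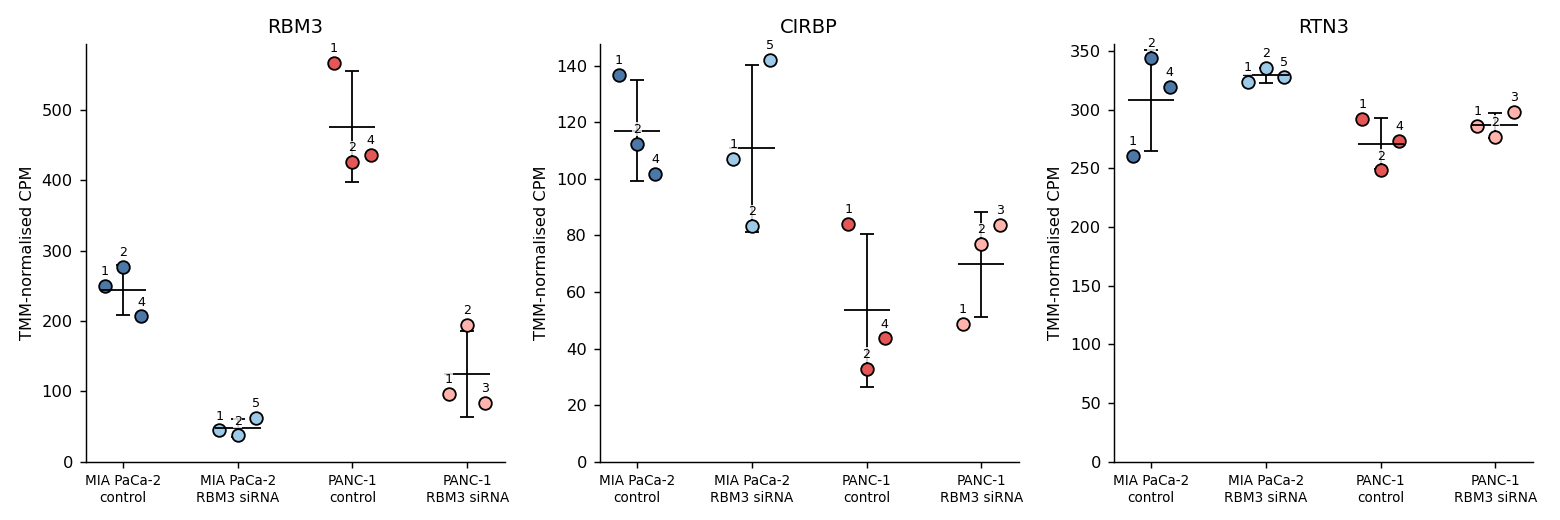
TMM-normalised CPM of RBM3, CIRBP and RTN3 (y axis, from 0) in the 4 groups (x axis); points are libraries numbered by replicate, with the mean and SD over 3. RBM3 falls from 207 to 277 down to 37.4 to 61.9 CPM in MIA PaCa-2 and from 426 to 567 down to 83.0 to 195 CPM in PANC-1, while the CIRBP and RTN3 libraries of each line overlap between siRNAs.

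The fall of RBM3 in MIA PaCa-2 passed in edgeR, with a log2 fold change of -2.35 (SE 0.31, 95% interval -3.02 to -1.68) and an adjusted p of 0.0426; 0.0112% of genes passed in that comparison. Leaving out any 1 library other than PANC-1 RBM3 siRNA replicate 2 or 3 ended that call, with an edgeR adjusted p of up to 0.548 and a log2 fold change between -2.59 and -2.20. In PANC-1 the log2 fold change was -1.93 (SE 0.30, 95% interval -2.59 to -1.28). RBM3 had the smallest p of all genes there, but its edgeR adjusted p was 0.516 and the share of genes called was 0%. DESeq2 called RBM3 in PANC-1 (adjusted p 1.75e-05), among 0.0168% of genes. Among the single removals, edgeR called RBM3 in PANC-1 only without siRNA replicate 2 (log2 fold change -2.42, adjusted p 0.00515). That library had the most RBM3 left, so a stronger fall without it follows from the choice and is no separate evidence. Without siRNA replicate 3 the log2 fold change was -1.72 and the edgeR adjusted p 1. The exact permutation p of the RBM3 levels was 0.1 in each line, the smallest that 3 against 3 libraries allow.

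CIRBP, the paralogue, did not follow RBM3 down in either line. In MIA PaCa-2 it was at 137, 112 and 102 CPM in control replicates 1, 2 and 4 and at 107, 83.3 and 142 CPM in siRNA replicates 1, 2 and 5. Its lowest and its highest MIA PaCa-2 value were both in siRNA libraries. The means were 117 ± 17.9 and 111 ± 29.5 CPM. The edgeR log2 fold change was -0.08 (SE 0.32; adjusted p 1; exact permutation p 0.8). Its 95% interval ran from -0.78 to 0.62, or from 0.582-fold to 1.54-fold of the control. A fall as large as that of RBM3 lies outside this interval, and smaller changes in either direction do not. The sign turned without control replicate 1 (0.060) and without siRNA replicate 2 (0.089).

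In PANC-1, CIRBP was at 84.1, 32.9 and 43.6 CPM in control replicates 1, 2 and 4 and at 48.7, 77.0 and 83.6 CPM in siRNA replicates 1, 2 and 3. The groups overlapped, since control replicate 1 was above all siRNA libraries and siRNA replicate 1 was close to the other controls. The means were 53.5 ± 27.0 and 69.8 ± 18.5 CPM. The log2 fold change was 0.38 (SE 0.32, 95% interval -0.32 to 1.08; edgeR adjusted p 0.9997; exact permutation p 0.4). The value in siRNA replicate 3, which held transcripts typical of MIA PaCa-2, was the highest of its group, and CIRBP was higher in MIA PaCa-2. The part of that in the difference was not tested. Without that library the log2 fold change was 0.22. Without control replicate 1 it was 0.87 (SE 0.29; edgeR adjusted p 0.980), and without control replicate 2 it was 0.13. The part of the greater depth of the siRNA libraries in this difference was not tested.

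RTN3 was the steadiest of the 3 genes. In MIA PaCa-2 it was at 260, 344 and 319 CPM in control replicates 1, 2 and 4 and at 324, 336 and 328 CPM in siRNA replicates 1, 2 and 5. All siRNA libraries lay within the range of the controls. The log2 fold change was 0.10 (SE 0.14, 95% interval -0.20 to 0.39; edgeR adjusted p 1). In PANC-1 it was at 292, 248 and 273 CPM in the same controls and at 286, 277 and 298 CPM in siRNA replicates 1, 2 and 3, again with overlap. The log2 fold change there was 0.08 (SE 0.14, 95% interval -0.21 to 0.38; edgeR adjusted p 0.9997), and 0.037 without siRNA replicate 3. In fold terms the intervals reach from 0.871 to 1.31 in MIA PaCa-2 and from 0.862 to 1.30 in PANC-1. These are transcript levels, and translation of RTN3 was not measured.

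**Figure D2:**
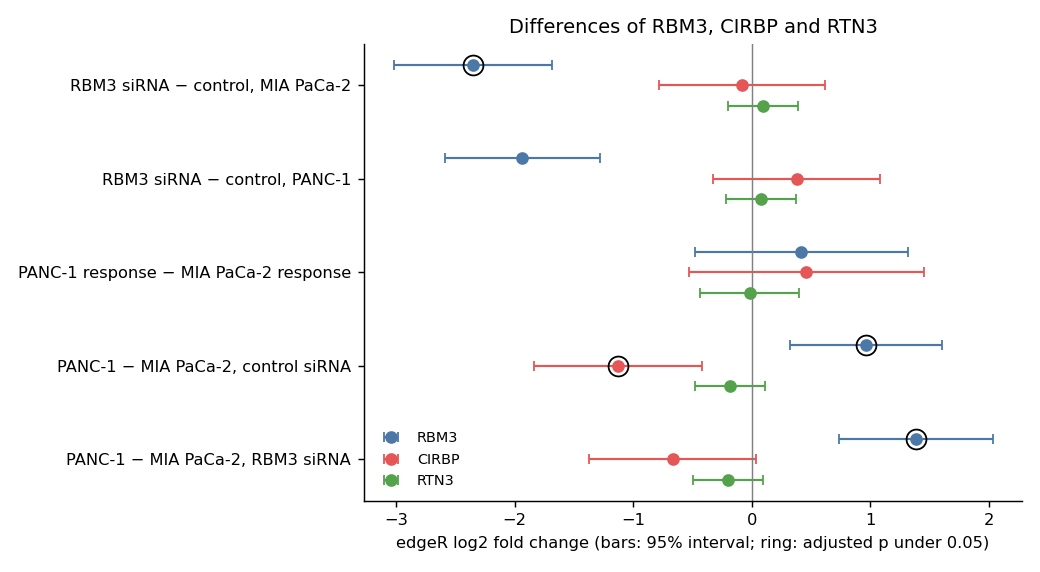
edgeR log2 fold change (x axis) of RBM3, CIRBP and RTN3 in 5 comparisons (y axis), with approximate 95% intervals; rings mark an adjusted p under 0.05. The siRNA intervals of CIRBP and RTN3 include 0 in both lines, and between the lines under control siRNA RBM3 (0.96) and CIRBP (-1.13) lie on opposite sides of 0.

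The genes differed in how much libraries of a group varied. Counting error alone was small: 100 divided by the square root of the count, the Poisson coefficient of variation, was at most 3.07% for RBM3, 4.59% for CIRBP and 1.67% for RTN3 in any library. The observed coefficient of variation of CIRBP was between 15.3% (MIA PaCa-2 controls) and 50.5% (PANC-1 controls), where the highest library had 2.56 times the level of the lowest. For RBM3 it was between 14.5% and 48.9%, with the largest value in PANC-1 with RBM3 siRNA. For RTN3 it was between 1.85% and 13.9%. The biological coefficient of variation estimated by edgeR was 26.6% for RBM3, 28.8% for CIRBP and 15.0% for RTN3, against a median of 26.3% over all genes tested. In MIA PaCa-2 with RBM3 siRNA the 1.85% of RTN3 was close to its largest Poisson value there, 1.33%.

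The CIRBP to RBM3 ratio within a library needs no scaling between libraries. The MIA PaCa-2 controls (replicates 1, 2 and 4) had 0.548, 0.406 and 0.493 CIRBP counts per RBM3 count. The siRNA libraries of that line (replicates 1, 2 and 5) had 2.41, 2.23 and 2.29. Lengths are not taken into account here, so the ratio compares libraries and not the levels of the 2 genes. The CIRBP share of the joint counts went from between 28.9% and 35.4% in the controls to between 69.0% and 70.7%. The siRNA libraries were close to each other in this ratio, with an SD of 0.06 on the log2 scale against 0.22 in the controls. In siRNA replicate 5 both genes were at their highest of the group, and in replicate 2 both were at their lowest. The PANC-1 controls (replicates 1, 2 and 4) had ratios of 0.148, 0.0772 and 0.0999, and the siRNA libraries (replicates 1, 2 and 3) 0.505, 0.395 and 1.01. PANC-1 siRNA replicate 3 had the highest ratio of the 6 PANC-1 libraries.

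**Figure D3:**
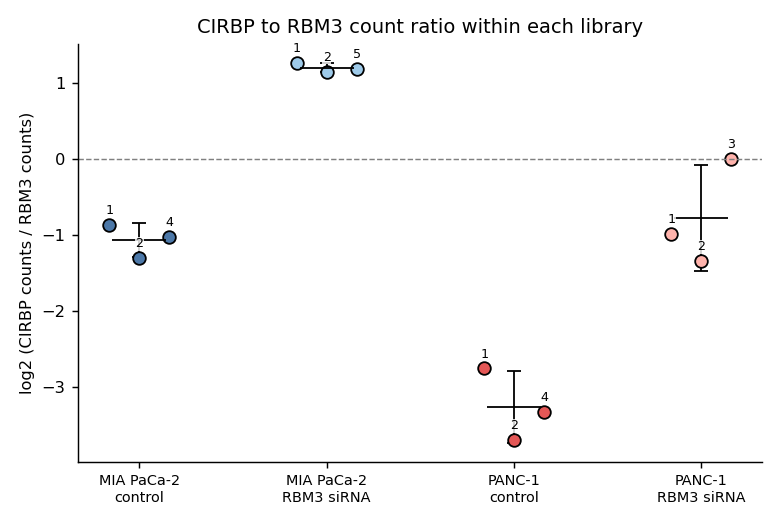
Log2 ratio of CIRBP to RBM3 raw counts within each library (y axis) in the 4 groups (x axis); points are libraries numbered by replicate, with the mean and SD over 3, and the dashed line marks equal counts, without regard to gene length. MIA PaCa-2 siRNA libraries lie highest, at 1.15 to 1.27, and PANC-1 controls lie lowest, at -3.70 to -2.75.

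The mean log2 ratio rose by 2.27 in MIA PaCa-2, a 4.82-fold change, and by 2.49 in PANC-1, a 5.60-fold change, without overlap in either line (exact permutation p 0.1, the smallest possible). Over the removal of each library in turn the difference stayed between 2.15 and 2.37 in MIA PaCa-2 and between 2.10 and 2.77 in PANC-1, where the lowest value was that without siRNA replicate 3. Since RBM3 is the siRNA target, this ratio holds the knockdown itself. The CIRBP to RTN3 ratio, which does not, overlapped between siRNAs in both lines, with log2 differences of -0.21 (exact permutation p 0.7) in MIA PaCa-2 and 0.38 (exact permutation p 0.4) in PANC-1.

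Whether the genes responded differently in the lines was tested as PANC-1 response minus MIA PaCa-2 response. RBM3 differed by 0.42 (SE 0.42, 95% interval -0.48 to 1.32), CIRBP by 0.46 (SE 0.46, 95% interval -0.53 to 1.45) and RTN3 by -0.02 (SE 0.19, 95% interval -0.43 to 0.40) on the log2 scale. None passed in edgeR (adjusted p 0.9999 for each), where 0% of genes did. Without PANC-1 RBM3 siRNA replicate 2 the RBM3 difference was -0.065, and without PANC-1 control replicate 1 the CIRBP difference was 0.96 (edgeR adjusted p 0.9999). Without PANC-1 RBM3 siRNA replicate 3 the differences were 0.64 for RBM3, 0.31 for CIRBP and -0.059 for RTN3. A difference in response anywhere within these intervals could not be resolved with 3 libraries per group.

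Between the lines, RBM3 and CIRBP differed in opposite directions. Under control siRNA RBM3 was higher in PANC-1, at 476 ± 78.8 against 244 ± 35.3 CPM in MIA PaCa-2, with no overlap, as 61.5% of genes had none between the lines. Its log2 fold change was 0.96 (SE 0.30, 95% interval 0.32 to 1.60; edgeR adjusted p 0.0163), in a comparison where 50.8% of genes were called. CIRBP was lower in PANC-1, also without overlap, with a log2 fold change of -1.13 (SE 0.33, 95% interval -1.84 to -0.42; edgeR adjusted p 0.0124). RTN3 overlapped between the lines, at 308 ± 42.9 CPM in MIA PaCa-2 and 271 ± 21.9 CPM in PANC-1, with a log2 fold change of -0.18 (SE 0.14; edgeR adjusted p 0.280). The RBM3 call was lost without MIA PaCa-2 control replicate 4 (edgeR adjusted p 0.0625) or PANC-1 control replicate 1 (0.0574). The CIRBP call was lost without MIA PaCa-2 control replicate 1 (edgeR adjusted p 0.0504) or PANC-1 control replicate 4 (0.0516), while its log2 fold change over all removals ran from -1.61 to -0.88.

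With RBM3 siRNA the lines kept the same order of RBM3, at 125 ± 60.9 CPM in PANC-1 and 47.9 ± 12.6 CPM in MIA PaCa-2. The log2 fold change was 1.38 (SE 0.30, 95% interval 0.73 to 2.03; edgeR adjusted p 0.00332; 43.6% of genes called). Without PANC-1 siRNA replicate 2 it was 0.91 and without replicate 3 it was 1.61, and it passed in edgeR under each of the 12 removals. The log2 fold change of CIRBP was -0.67 (SE 0.32, 95% interval -1.37 to 0.04), with an edgeR adjusted p of 0.113 and overlapping libraries. Without PANC-1 siRNA replicate 3 this value was -0.82 (edgeR adjusted p 0.0789). RTN3 libraries did not overlap here, at 324 to 336 CPM in MIA PaCa-2 and 277 to 298 CPM in PANC-1, in a comparison where 54.4% of genes do not overlap. Its log2 fold change of -0.20 (SE 0.14) did not pass in edgeR (adjusted p 0.252), nor did the value without PANC-1 siRNA replicate 3 (-0.23, adjusted p 0.210).

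**Figure D4:**
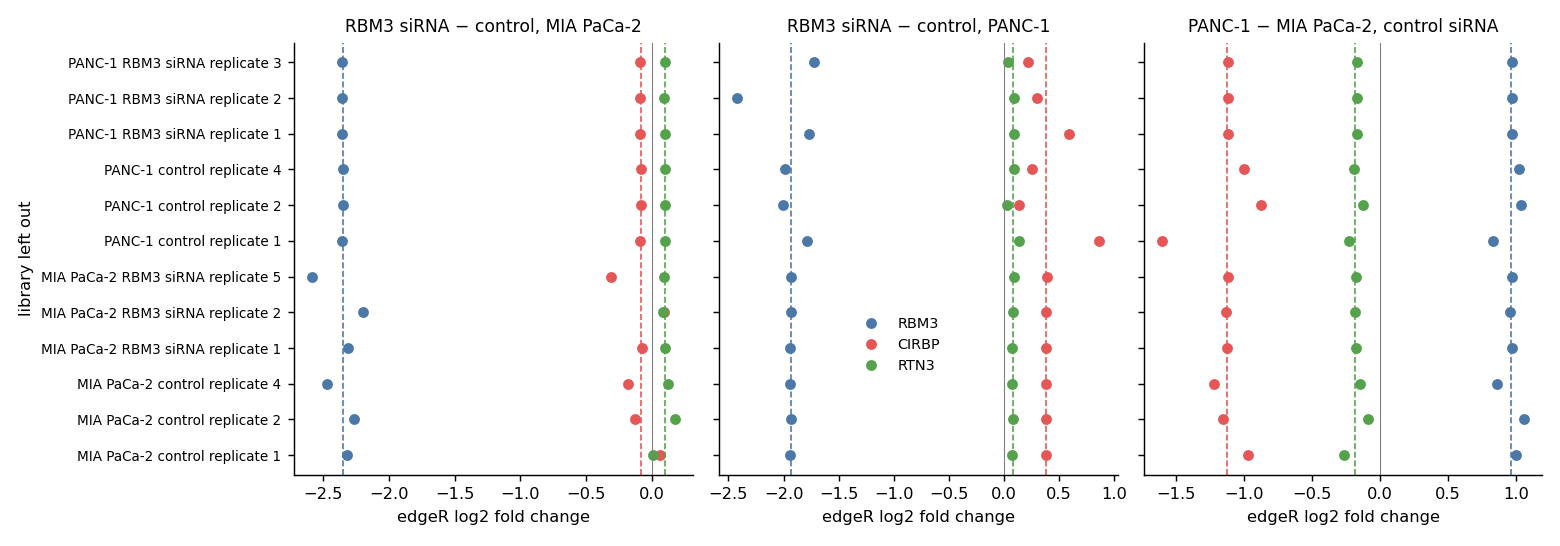
edgeR log2 fold change (x axis) of RBM3, CIRBP and RTN3 when 1 library at a time is left out (y axis) in 3 comparisons; dashed lines are the values from all 12 libraries and the grey line marks 0. CIRBP in PANC-1 moves most with its controls, between 0.13 without replicate 2 and 0.87 without replicate 1, while RTN3 stays between 0.03 and 0.13 there.

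Across the 4 groups, mean RBM3 ran from PANC-1 controls, through MIA PaCa-2 controls and PANC-1 siRNA, to MIA PaCa-2 siRNA. The 2 middle groups nearly met, since the lowest MIA PaCa-2 control was at 207 CPM and the highest PANC-1 siRNA library at 195 CPM. CIRBP ran from MIA PaCa-2 controls and MIA PaCa-2 siRNA, which overlapped, to PANC-1 siRNA and PANC-1 controls, which also overlapped. Its lowest MIA PaCa-2 siRNA library (83.3 CPM) and highest PANC-1 siRNA library (83.6 CPM) were level. Mean RTN3 ran from MIA PaCa-2 siRNA (329 ± 6.10 CPM) and MIA PaCa-2 controls to PANC-1 siRNA (287 ± 10.7 CPM) and PANC-1 controls, each overlapping the next.

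To compare the levels of different genes, length was taken into account, as mean CPM per kilobase of annotated exon (3731 bases for RBM3, 6368 for CIRBP and 5792 for RTN3). On this scale RBM3 led in the controls, with 128 in PANC-1 and 65.5 in MIA PaCa-2, ahead of RTN3 (46.8 and 53.2) and CIRBP (8.41 and 18.4). In PANC-1 controls RBM3 ranked 310 from the top among the 17363 tested genes with a length. With RBM3 siRNA its mean fell behind that of RTN3 in both lines, to 33.4 in PANC-1 against 49.5, and to 12.8 in MIA PaCa-2 against 56.8. In PANC-1 siRNA replicates 1, 2 and 3 RBM3 was at 25.9, 52.2 and 22.3, and RTN3 at 49.4, 47.8 and 51.5. RBM3 thus stayed ahead in replicate 2, and its lowest value was in replicate 3, the library that stood apart. In MIA PaCa-2 mean RBM3 also fell behind CIRBP (17.4), and its rank went from 717 to 4170. The exon total pools the exons of all annotated transcripts, 46 of them for CIRBP. Per kilobase of 1 transcript each (RBM3-202, CIRBP-201 and RTN3-203) the order of the group means was the same in all 4 groups. CIRBP was at 88.1 and RBM3 at 216 in MIA PaCa-2 controls. However, RBM3 (110) and RTN3 (114) were then nearly level in PANC-1 with RBM3 siRNA. Replicate 3 had the lowest RBM3 and the highest RTN3 of that group, so the order of these 2 means depends on that library. The length of the transcripts in these cells was not measured.

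The genes most like each member in level over the 12 libraries were ranked by Pearson r of log2 CPM among 10785 genes, as a description that pools the lines and the siRNAs. Differences that these genes share with their member follow from that choice, made in the same libraries, and are no separate evidence. For RBM3 these were SLC25A44, a mitochondrial carrier for branched-chain amino acids (r 0.932), MORF4L1, a chromatin protein (0.915), HIF1AN, the asparaginyl hydroxylase that restrains HIF (0.897), LSM10, a component of the U7 particle (0.891), and PYURF (0.890). SLC25A44 had a log2 fold change with RBM3 siRNA of -0.97 for MIA PaCa-2 and -0.68 for PANC-1, and LSM10 one of -0.45 and -0.50. Without PANC-1 siRNA replicate 3 the PANC-1 values were -0.44 (SE 0.30) and -0.37 (SE 0.19). In PANC-1, SLC25A44 overlapped between siRNAs, at 62.6 CPM in siRNA replicate 2 and 52.2 CPM in control replicate 4. For CIRBP they were PTX3, a pentraxin of innate immunity (r 0.973), SYT1, a calcium sensor of vesicle release (0.972), ALG2, a mannosyltransferase of N-glycan synthesis (0.970), SERPINB8 (0.956) and IFT46, a ciliary transport protein (0.951). In controls all 5 had lower means in PANC-1, as CIRBP had; PTX3 was at 6.87 and 82.55 CPM and ALG2 at 30.7 and 52.0 CPM. Within PANC-1 their log2 fold changes with RBM3 siRNA ran from 0.25 for ALG2 to 1.07 for SERPINB8. Without siRNA replicate 3 they ran from 0.23 (SE 0.29) for ALG2 to 0.58 (SE 0.55) for SYT1. PTX3 overlapped between siRNAs in PANC-1, at 16.6, 1.39 and 2.62 CPM in control replicates 1, 2 and 4. In siRNA replicates 1, 2 and 3 PTX3 was at 3.43, 16.4 and 22.7 CPM. Without PANC-1 siRNA replicate 3 the r of these 5 genes with CIRBP was between 0.952 and 0.977. For RTN3 they were KPNA2, a nuclear import receptor (r 0.934), CDKN1C, a cyclin-dependent kinase inhibitor (0.928), PDIA6, a disulfide isomerase of the endoplasmic reticulum (0.920), KIFC3 (0.911) and MRPL9 (0.910).

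Genes around the 3 members were taken from 8 lists, of which 111 genes other than the members were tested. No list gene passed in edgeR with RBM3 siRNA in either line. Among all 17862 genes tested, MIA PaCa-2 gave only 2 such calls (0.0112%), while PANC-1 gave 0 (0%). With so few calls, the absence of called list genes, here and in the paragraphs on each list, cannot set a list apart from other genes. It does not show that a list was unchanged. At an unadjusted p under 0.05 there were 3 in MIA PaCa-2 (2.70%, against 2.94% of all genes) and 2 in PANC-1 (1.80%, against 4.12%). Without PANC-1 siRNA replicate 3 there was 1 in PANC-1 (0.901%, against 1.07%), the neurotrophin receptor NTRK2, and 0 passed after adjustment in edgeR. List medians in PANC-1 without that library lay between -0.13 and 0.10, against 0.0035 over all genes. Between the lines under control siRNA 64 of the 111 passed (57.7%, against 50.8% of all genes, of which 26% were called higher and 24.8% lower in PANC-1).

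Relatives of RBM3 and CIRBP with the same kind of RNA recognition motif gave no call with RBM3 siRNA among 5 tested. Their median log2 fold change was -0.10 for MIA PaCa-2 and 0.02 for PANC-1, where it was 0.035 without siRNA replicate 3. HNRNPA1 and RBMXL1 were listed but did not pass the filter on low counts, for a reason not examined. RBMX2, a spliceosome protein, had 35.7 ± 1.67 and 41.9 ± 2.66 CPM with control and RBM3 siRNA in MIA PaCa-2 and at 45.9 ± 5.21 and 48.3 ± 2.98 CPM in PANC-1. HNRNPA3, an abundant nuclear ribonucleoprotein, was the only one of the 5 that passed between the lines under control siRNA, lower in PANC-1 (log2 fold change -0.40, SE 0.15; edgeR adjusted p 0.0359). RBMX2 (0.36, adjusted p 0.0556) and HNRNPA0 (0.58, adjusted p 0.0655) had positive log2 fold changes that missed the edgeR threshold. Of the cold shock domain proteins, a separate family named for its kinship with bacterial cold shock proteins, 7 were tested. Under control siRNA 4 of them passed in edgeR as higher and 2 as lower in PANC-1, against 26% and 24.8% of all genes. YBX2, a germ cell messenger RNA-binding protein, was at 67.8 ± 14.4 CPM in PANC-1 and 0.0579 ± 0.0637 CPM in MIA PaCa-2 controls, and LIN28B, an inhibitor of let-7 maturation, at 13.8 ± 3.23 and 0.0849 ± 0.0961 CPM. YBX3 went the other way, at 156 ± 9.69 and 435 ± 7.71 CPM.

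Among 14 tested genes reported to act on RBM3 or CIRBP, no call was made with RBM3 siRNA. The median log2 fold change was 0.05 for MIA PaCa-2 and 0.12 for PANC-1, against 0.00 and 0.03 over all genes. Without siRNA replicate 3 the PANC-1 median was 0.051. CLK1, a kinase of splicing factors that is more active in the cold, had 33.4 ± 6.52 and 39.5 ± 11.5 CPM with control and RBM3 siRNA in MIA PaCa-2. CREB1, a cAMP-responsive transcription factor, was at 36.6 ± 4.61 and 44.9 ± 9.38 CPM in PANC-1 (log2 fold change 0.29, and 0.36 without siRNA replicate 3). Under control siRNA 2 of the 14 passed in edgeR as higher in PANC-1 and 3 as lower, against 26% and 24.8% of all genes. The 2 higher were BDNF and its receptor NTRK2, both under 2 CPM on average. Among the 3 lower were GSK3B, a kinase that phosphorylates CIRBP, at 69.05 ± 7.92 against 105 ± 17.9 CPM, and CLK2, at 42.2 ± 0.905 against 63.5 ± 4.98 CPM.

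Reticulons and other proteins that shape the endoplasmic reticulum, the family of RTN3, gave no call with RBM3 siRNA among 18 tested. Their median log2 fold change was 0.00 for MIA PaCa-2 and 0.11 for PANC-1, where it was 0.033 without siRNA replicate 3. ATL3, a GTPase that fuses tubules, had an unadjusted edgeR p of 0.0495 in MIA PaCa-2, at 97.4 ± 8.88 and 77.7 ± 4.34 CPM (log2 fold change -0.33, SE 0.15, adjusted p 1). RTN1, a neuronal reticulon, had a log2 fold change of 3.73 (SE 1.75; edgeR adjusted p 0.9997) in PANC-1. It was at 0.171, 0.0694 and 0.0461 CPM in control replicates 1, 2 and 4 and at 0.0606, 0.186 and 3.90 CPM in siRNA replicates 1, 2 and 3. The high value is that of the library that stood apart, RTN1 was at 5.73 ± 8.25 CPM in MIA PaCa-2 controls, and without that library the log2 fold change was 0.27 (SE 1.87). Between the lines 6 of the 18 passed in edgeR as higher and 6 as lower in PANC-1 under control siRNA, against 26% and 24.8% of all genes. RTN4, which limits axon growth, was higher at 1019 ± 125 against 461.5 ± 39.4 CPM (edgeR adjusted p 0.000125). REEP3 was also higher, and REEP2 and REEP6 were lower, at 11.7 ± 1.73 against 44.5 ± 9.97 and 14.2 ± 2.86 against 69.2 ± 11.6 CPM.

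The circadian clock list was included because CIRBP and RBM3 follow body temperature and bind clock transcripts. None of 19 tested genes passed in edgeR with RBM3 siRNA. In PANC-1 16 of the 19 (84.2%) had a positive log2 fold change, against 54.8% of all genes, with a median of 0.19 against 0.03. This rested on siRNA replicate 3, without which 9 of the 19 (47.4%) were positive, against 50.5% of all genes, with a median of -0.048. In MIA PaCa-2 10 were positive, with a median of 0.02. NR1D2, a clock repressor, had the smallest p of the list in both lines, at log2 fold changes of 0.54 (SE 0.29) and 0.56 (SE 0.29), and its PANC-1 value was 0.38 without siRNA replicate 3. DBP, a clock output factor, was at 3.89, 8.67 and 11.1 CPM in PANC-1 control replicates 1, 2 and 4 and at 9.67, 2.51 and 56.3 CPM in siRNA replicates 1, 2 and 3. Its log2 fold change there went from 1.54 to -0.39 without siRNA replicate 3. DBP was far higher in MIA PaCa-2 controls, at 137 ± 101 CPM. Under control siRNA 5 clock genes passed in edgeR as higher and 8 as lower in PANC-1, against 26% and 24.8% of all genes. NPAS2, a partner of BMAL1, was higher (log2 fold change 0.90, SE 0.20), and PER3, a period protein, was lower (-1.54, SE 0.32).

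Heat shock genes, the counterpart at high temperature, gave no call with RBM3 siRNA among 17 tested. The medians were 0.01 for MIA PaCa-2 and -0.10 for PANC-1, or -0.060 in PANC-1 without siRNA replicate 3. HSP90AA1 had 1612 ± 319 and 2120 ± 226 CPM in MIA PaCa-2 (log2 fold change 0.40, SE 0.20, edgeR adjusted p 1). Under control siRNA 6 passed in edgeR as higher and 4 as lower in PANC-1, against 26% and 24.8% of all genes. HSPA1A, which shares most of its sequence with HSPA1B and is uncertain for that reason, was higher at 135 ± 23.0 against 28.0 ± 14.5 CPM. BAG3 (263 ± 30.9 against 93.4 ± 18.6 CPM) and DNAJA1 (457 ± 113 against 126 ± 24.6 CPM) were also among the 6 higher.

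Of 14 tested transcripts reported as bound or regulated by RBM3 or CIRBP, none passed in edgeR with RBM3 siRNA. STAT3 had 630 ± 65.4 and 503 ± 3.18 CPM in MIA PaCa-2 (log2 fold change -0.33, SE 0.14, adjusted p 1). TERT, the telomerase catalytic subunit, was at 3.94 ± 1.01 and 2.33 ± 0.326 CPM there. HIF1A was at 34.8 ± 6.56 and 49.0 ± 11.5 CPM in PANC-1 (log2 fold change 0.49, SE 0.21, edgeR adjusted p 0.9997; 0.38 without siRNA replicate 3) and at 122 ± 18.4 and 102.5 ± 8.15 CPM in MIA PaCa-2. Between the lines under control siRNA it was lower in PANC-1 (log2 fold change -1.82, SE 0.21; edgeR adjusted p 3.14e-05). For the poly(A) site machinery, on which RBM3 and CIRBP act by opposing the use of upstream sites, none of 17 genes passed with RBM3 siRNA. NUDT21, whose product favours distal sites, was at 107, 85.2 and 84.1 CPM in PANC-1 control replicates 1, 2 and 4 and at 90.9, 119 and 182 CPM in siRNA replicates 1, 2 and 3 (log2 fold change 0.50, SE 0.22, edgeR adjusted p 0.9997). The highest value is that of the library that stood apart, and without it the log2 fold change was 0.17 (SE 0.18). NUDT21 was at 258 ± 19.96 CPM in MIA PaCa-2 controls. Between the lines it was lower in PANC-1 (log2 fold change -1.49, SE 0.22, edgeR adjusted p 0.000188). CPSF2 and SYMPK were also among the 6 of 17 that passed in edgeR as lower, and 1 passed as higher, against 24.8% and 26% of all genes. Poly(A) site use itself was not measured by these gene counts.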

How the data were processed

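RNA was sequenced in 12 libraries, paired-end at 75 bp with a TruSeq v2 kit, per the labels. The authors deposited unnormalised whole-number counts for each Ensembl gene ID. STAR 2.5.2a, featureCounts, Subread and Picard, and the build hg19/GRCh37, are named per the submitters' processing notes. The sources used here give no annotation release or strand setting. The deposited counts are labelled markdup, and whether marked duplicates were counted is not given. A gene name table gave symbols. Of 63677 rows, 17862 passed filterByExpr (minimum count 10).

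Tests used edgeR 4.0.16 in R 4.3.3: TMM, 1 quasi-likelihood model of 4 group means over 12 libraries with 8 residual degrees of freedom, two-sided, with Benjamini-Hochberg adjustment over all genes at 0.05. SEs were derived from each gene's F statistic (absolute log2 fold change over root F), and 95% intervals use them, so both are approximate. Exact permutation tests were two-sided, on log2 values (scipy 1.17.1). DESeq2 1.42.0 and limma-voom (limma 3.58.1) were alternatives. Total counts were 14217185 to 39652502, and the upper limit for a gene with no reads, taken as 3 counts, was 0.0714 to 0.208 CPM (counting error only). Sequences and lengths came from GENCODE 29 (GRCh38). On simulated counts for the MIA PaCa-2 comparison (17862 genes, 100 changed at each fold), edgeR called 27% of 2-fold and 83% of 4-fold changes with 11 false calls, and DESeq2 49% and 93% with 34 false calls. List results without PANC-1 siRNA replicate 3 were added after the data were seen.

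The members, lists and tests were chosen with earlier results of these data known. List genes named are those with the smallest p of a list in a comparison, up to 4 each, and the 5 most correlated genes per member.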

Additional observations from a re-analysis of the deposited data

How the results depend on the processing

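The direction of RBM3 with siRNA held in each line under all 21 alternatives. In MIA PaCa-2 the edgeR call was lost with median-of-ratios (RLE) size factors (log2 fold change -2.36, adjusted p 0.0543) and with a filter of 1 CPM in 6 libraries (-2.35, 0.0505). In PANC-1 RBM3 passed with DESeq2 (-1.95), with no filter (-1.91, edgeR adjusted p 9.03e-06) and with DESeq2 without PANC-1 siRNA replicate 3 (-1.72, adjusted p 0.00165), an alternative added after the data were seen. For the response difference of RTN3 the sign turned with no filter (0.015). The number of genes called in MIA PaCa-2 was 2, and became 21 with DESeq2, 29 with DESeq2 without PANC-1 siRNA replicate 3, 1 with limma-voom and 0 with RLE size factors, with the 1 CPM filter and with the replicate block. In PANC-1 it was 0, and became 3, 1 and 230 with DESeq2, with DESeq2 without that library and with no filter; for the response difference these were 3, 1 and 107. The cause was not tested. Between the lines 9080 genes were called with control siRNA and 7781 with RBM3 siRNA, within 1.5 times under all 20 alternatives each. Over the removal of each library the values ran as follows. RBM3 was -2.59 to -2.20 in MIA PaCa-2, -2.42 to -1.72 in PANC-1, -0.065 to 0.66 for the response difference and 0.83 to 1.06 between the lines under control siRNA. CIRBP was -0.31 to 0.089 in MIA PaCa-2, 0.13 to 0.87 in PANC-1 and -1.61 to -0.88 between the lines under control siRNA. RTN3 was -0.087 to 0.071 for the response difference. Genes called ran from 0 to 3 in MIA PaCa-2 and from 0 to 1 in PANC-1. Replicate numbers 1 and 2 are shared within a line, and the deviations of same-numbered libraries correlated at 0.181 and -0.156 in MIA PaCa-2 and -0.478 and -0.401 in PANC-1, so they were not taken as pairs. With the replicate block RBM3 was -2.69 in MIA PaCa-2 (edgeR adjusted p 0.970) and -1.84 in PANC-1 (1), and CIRBP -0.39 and 0.21; the block leaves few residual degrees of freedom.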
